A study of Mus musculus with 21 samples.

Results

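The 10 genes Gnat3, Gnb3, Gng13, Plcb2, Itpr3, Trpm5, Trpm4, Rgs21, Gna14 and Pde1c, which belong to or border the taste transduction cascade of type II taste cells, were followed in RNA from circumvallate taste buds of the mouse. They were chosen by name and located through the gene symbols of the study's merged transcript annotation, which placed all 10 in the expression table, out of 43193 gene symbols with a locus there. Donors were C57BL/6J wild types of 20 to 24 weeks, so all groups share 1 inbred background. The 21 libraries fall by label into Hungry, Satiated and Ad lib, with 7 in each, and nothing in the labels says whether each came from a separate animal. Taste buds were taken from the circumvallate papilla on the hind tongue, so each library mixes type II cells with the other cells of the bud and its surroundings.

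In type II cells, sweet, umami or bitter compounds bind receptors coupled to a heterotrimeric G protein. The freed beta and gamma subunits activate phospholipase C, inositol trisphosphate opens its receptor on calcium stores, and calcium opens cation channels of the TRPM family that depolarise the cell. The alpha subunit gustducin acts on cyclic nucleotides through phosphodiesterase, and RGS proteins shorten the signal by speeding GTP hydrolysis on alpha subunits.

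Each locus of the table has the authors' mean of compatible fragments, those that fit a transcript in the annotation. It also has a mean of total fragments of the locus, with a variance of each. Fragments were scaled by a size factor per library, which brings libraries of different depth to one scale. The table lists 3 conditions, named C, F and H, with the same values throughout, so 0 of 32052 loci differed between them. These identical values hold no comparison of Hungry, Satiated and Ad lib, and every level below pools the 21 libraries. No level of a single library was analysed here, and no fold change or test between feeding states could be made for any cascade gene. Over all loci the means added up to 21881979 compatible and 23769781 total fragments. Errors are SDs from the authors' variance. At a locus with fragments in 1 library the variance over the squared mean is fixed by the size of that library's set. It had the value for a set of 8 at 474 loci, of 7 at 667 and of 6 at 454, against 7 libraries per group in the labels. Sets of these sizes cover all 21 libraries, so the value for 3, met at 1 locus, was not read as a set. An SD therefore covers the spread within the sets of 8, 7 and 6 and not a difference between them. In whole buds, fewer cells of a type and less RNA per cell cannot be told apart.

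The cell type in the cascade's name was checked against marker genes. Detected loci, those with a mean of at least 10 compatible fragments, were 13467 of all 32052. All 6 type II markers were detected. Among them Pou2f3, the transcription factor that type II cells need, had 4137 ± 428 fragments (SD, n = 21). Calhm3, a subunit of the channel that releases ATP, had 3778 ± 399, while its partner Calhm1 had 43.2 ± 19.4. Markers of other cells of the bud were present too, with 5 of 5 type III and 2 of 3 type I markers detected. All 4 keratinocyte markers were detected, with CVs from 51.3% to 158% (CV, the SD as a percentage of the mean). Compatible fragments summed to 15397 over the 6 type II markers and 29438 over the 5 type III markers. They summed to 21401 over the 3 type I and 42639 over the 4 keratinocyte markers. These sums are not divided by length, and at shared loci they include fragments of neighbouring genes. A locus of their own was held by 4 type II, 3 type III, 1 type I and 4 keratinocyte markers among those detected. Tas1r2 and Tas1r3, type II markers with 4149 and 2686 fragments, had shared loci. Of 4 von Ebner gland markers 1 was detected, Muc5b, with Bpifa2 and Obp2a at 0 compatible fragments, and of 4 connective tissue markers 1 was, Dcn. Of the muscle markers, 2 of 3 were measured and 0 were detected.

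All 10 cascade genes were detected, and 8 of them had at least 1000 compatible fragments. Of all 32052 loci, 13467 were detected and 4696 had at least 1000 compatible fragments. Together they held 98030 compatible fragments, which was 0.448% of the sum over all loci. Of the 10, 6 had a locus of their own and 4 shared one: Trpm5 with Tssc4, Gng13 with Chtf18, Itpr3 with Itpr3os and Mir7677, and Trpm4 with Rpl14-ps1. Fragments of the neighbours count in the values of those 4. The overlap of exons with the neighbour on the other strand was 399 bases for Gng13 and Chtf18, against 773 exonic bases of Gng13. For Trpm5 and Tssc4 it was 220 of 6398 bases, for Itpr3 and Itpr3os 233 of 8990, and for Trpm4 and Rpl14-ps1 it was 0.

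**Figure D1:**
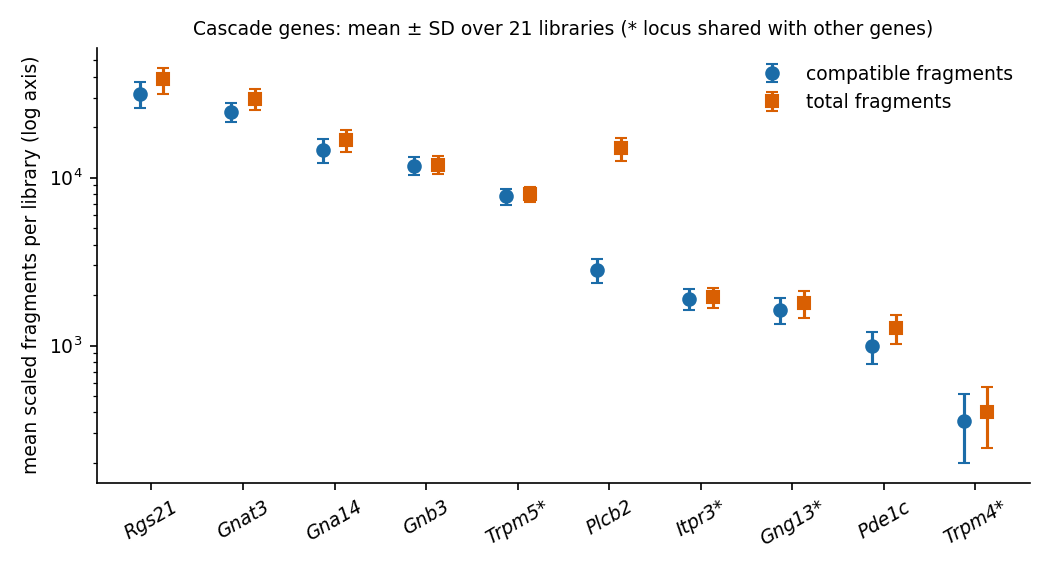
Mean scaled fragments per library of the 10 cascade genes on a log axis, for compatible (blue circles) and total (orange squares) fragments. Bars are 1 SD from the 21 libraries, within the sets of 8, 7 and 6. Asterisks mark loci shared with other genes. Compatible levels run from 357 for Trpm4 to 31578 for Rgs21, and Plcb2 is the gene whose total, 14992, stands far above its compatible level, 2833.

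Gnat3 encodes gustducin, the taste-specific G protein alpha subunit (chromosome 5, 17962621 to 18019834, plus strand, GRCm38). It had 24576 ± 3215 compatible fragments (SD, n = 21), or 19066 ± 2494 per kb of its longest reference transcript of 1289 bases. Per kb it was the highest of the 10, and it ranked 20 among 8696 detected loci that hold 1 gene symbol. Gna14 encodes an alpha subunit of the Gq class (chromosome 19, 16435667 to 16610818, plus strand). It had 14586.5 ± 2424 compatible fragments, or 4312 ± 717 per kb, and ranked 164. Gnat3 was 4.42 times as high as Gna14 per kb.

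Among the 14 other alpha subunit genes measured, 0 lay above Gnat3 or Gna14 per kb. The highest of these 14 was Gnas, which encodes the stimulatory alpha subunit, with 3688 per kb at a locus that also holds Nespas and 4 other symbols. Among loci with 1 gene it was Gnai3, an inhibitory alpha subunit, with 2139 per kb. Both hold for compatible fragments: by total fragments Gnai1, another inhibitory alpha subunit, was the highest of the 14, with 4306 per kb at a locus of its own, against 3745 for Gnas and 2165 for Gnai3. Gnat3, with 22901, and Gna14, with 4961, lay above it. The rod and cone transducins, which are gustducin's relatives in the eye, were near the floor: Gnat1 had 3.39 and Gnat2 4.13 compatible fragments.

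Gnb3 encodes G protein subunit beta 3 (chromosome 6, 124834240 to 124840275, minus strand). It had 11811 ± 1426 compatible fragments, or 6398 ± 772 per kb, and ranked 99 among single-gene loci. None of the 4 other beta genes lay above it: Gnb1, the highest, had 3131 per kb at a locus shared with Gm13171. Gng13 encodes gamma 13, the gamma partner of gustducin (chromosome 17, 25717171 to 25719406, plus strand). Its locus, shared with Chtf18, had 1637 ± 297 compatible fragments, or 2277 ± 413 per kb of the Gng13 transcript of 719 bases. Of the 11 other gamma genes 0 lay above it, and the highest, Gng10, had 809.5 per kb at a locus shared with Dnajc25 and Gm20503. Per kb, Gnat3 stood at 2.98 times Gnb3, and Gnb3 at 2.81 times the locus of Gng13. Fragments of Chtf18, which has 4584 exonic bases, count in that locus, and their part was not separated. The level of Gng13, its place among gamma genes and the ratio to Gnb3 are limited by this.

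Rgs21, an RGS gene expressed in taste cells, lies on chromosome 1 (144516648 to 144567667, minus strand). It had 31578 ± 5458 compatible fragments, the most of the 10 before length was taken into account, and 8328 ± 1439 per kb of its longest reference transcript. That transcript of 3792 bases is annotated without a coding sequence. Per kb of the protein-coding transcript of 1674 bases, Rgs21 had 18864, close to Gnat3. Per kb of all its exons it had 8013. A model assembled from the study's reads kept the introns of the protein-coding transcript and had 3635 bases. Of the 20 other RGS genes 0 lay above Rgs21 per kb, and the next were Rgs2 with 1971 and Rgs20 with 1403, whose locus also holds Atp6v1h and 4 other symbols.

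Plcb2 encodes phospholipase C beta 2, which makes inositol trisphosphate (chromosome 2, 118707517 to 118728438, minus strand). It had 2833 ± 464 compatible fragments and 14992 ± 2338 in total, so 18.9% of its fragments were compatible. The total was 5.29 times the compatible level, against 1.01 times for the cascade gene with the lowest such ratio, Gnb3. Per kb Plcb2 had 551 ± 90.1 compatible and 2914 total fragments. Plcb4 encodes another phospholipase C beta. It lay above Plcb2 by compatible fragments, with 844 per kb, and below it by total fragments, with 899.7 per kb, at a locus shared with Gm14209, Gm14210 and Gm14211. Plcb3 had 118 and Plcb1 had 36.1 compatible fragments per kb.

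Itpr3 encodes the inositol trisphosphate receptor type 3 on calcium stores (chromosome 17, 27057304 to 27122223, plus strand). Its locus had 1904 ± 281 compatible fragments, or 212 ± 31.2 per kb of a transcript of 8990 bases in 58 exons. Itpr1 and Itpr2, the other receptors of the family, had 131 and 87.2 per kb, at loci shared with Gm27813 and Gm15720. Trpm5, the calcium-activated cation channel of type II cells, had 7752 ± 832 compatible fragments at its locus with Tssc4 (chromosome 7, 143069153 to 143094642, minus strand). This was 1880.1 ± 202 per kb of the longest reference transcript of 4123 bases. Trpm4, a close relative with the same ion selectivity, had 357 ± 156 compatible fragments, or 84.1 ± 36.8 per kb (chromosome 7, 45303155 to 45333780, minus strand). Per kb the locus of Trpm5 was 22.4 times that of Trpm4, which also holds Rpl14-ps1, and the part of the neighbours was not separated. Trpm7, with 313 per kb at a locus shared with Gm14212, was the 1 TRPM paralog above Trpm4, and none of the 6 TRPM paralogs lay above Trpm5.

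Pde1c encodes a phosphodiesterase that calcium and calmodulin activate (chromosome 6, 56069821 to 56369634, minus strand). It had 996 ± 217 compatible fragments, or 113 ± 24.6 per kb, and ranked 4969 among the 8696 single-gene loci. Of the 17 other phosphodiesterase genes 5 lay above it per kb, namely Pde9a with 498, Pde2a with 379.5, Pde7a with 229.9, Pde5a with 200.8 and Pde4d with 197. Pde2a shared its locus with Mir139, Pde7a with Gm16093 and Pde4d with 6 other symbols. Pde1a and Pde1b, the other calmodulin-dependent members, had 0.0351 and 0.507 compatible fragments.

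The order per kb was Gnat3, Rgs21, Gnb3, Gna14, Gng13, Trpm5, Plcb2, Itpr3, Pde1c and Trpm4. RNA was reverse-transcribed with oligo(dT) primers, and how evenly fragments cover the transcripts was not examined. The transcripts run from 719 bases for Gng13 to 8990 for Itpr3, so the order need not be that of transcript numbers. Ranges of mean ± SD overlapped for 3 of the 9 neighbouring pairs, Rgs21 with Gnb3, Gng13 with Trpm5, and Pde1c with Trpm4. The ranges of the other 6 pairs did not overlap. For Gnat3 with Rgs21 and for Gnb3 with Gna14 this depended on the length used. Per kb of all its exons Rgs21 had 8013, still below Gnat3. Only per kb of its shorter protein-coding transcript, at 18864, did Rgs21 lie within 1 SD of Gnat3. Per kb of all exons Gnb3 had 4487, within 1 SD of Gna14 at 4312 ± 717. By that length Pde1c, at 77.8, came below Trpm4, at 84.1. By total fragments Plcb2 moved up to the fifth place, above Gng13 and Trpm5. Of the 8 gene families, 5 have a cascade gene at a locus with 1 gene symbol. In 4 of these 5 it was the highest such locus per kb, namely in the alpha, beta, phospholipase C beta and RGS families, and in the phosphodiesterases it was not. With shared loci counted, the number was 6 of 8, since the gamma, inositol trisphosphate receptor and TRPM families joined and Plcb4 displaced Plcb2.

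**Figure D2:**
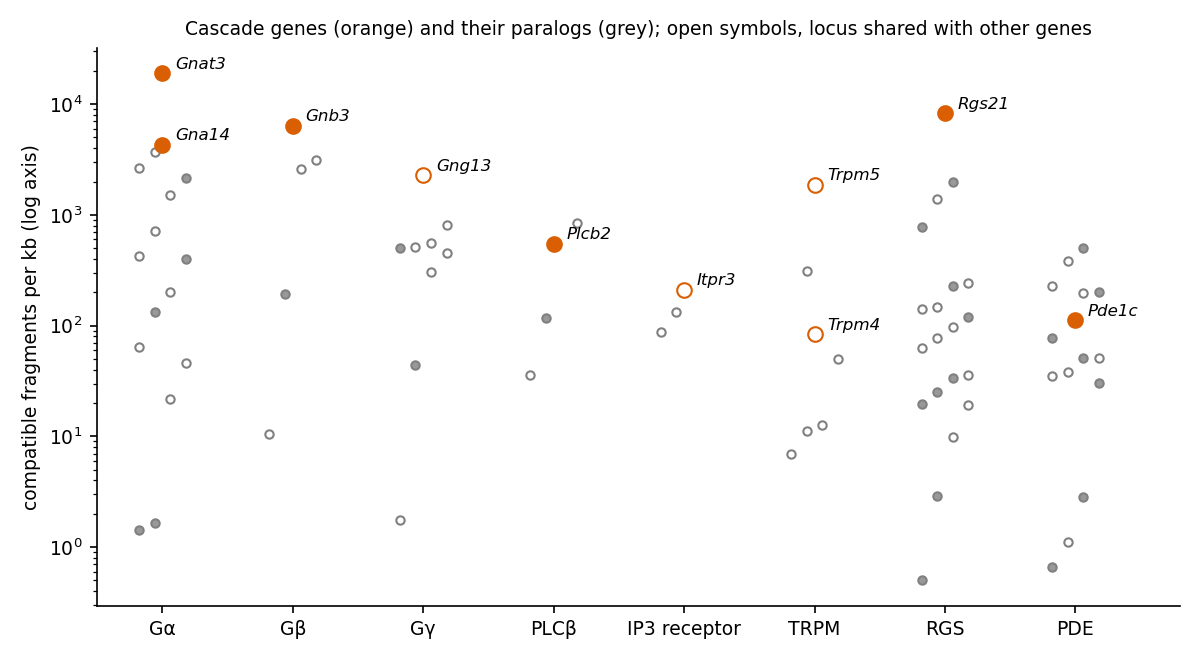
Compatible fragments per kb of the longest reference transcript (log axis) for cascade genes (orange) and their paralogs (grey) in 8 gene families; open symbols are loci shared with other genes, and 8 of 87 family genes under 0.5 per kb are not drawn. Gnat3 at 19066, Gnb3 at 6398 and Rgs21 at 8328 stand above every paralog, whereas Pde1c at 113 lies among them.

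Other genes of the pathway came from lists chosen by function, and none of these lists has a test between conditions. Their counts of detected genes stand beside 13467 detected loci of 32052. All 3 sweet and umami receptor genes were detected. Tas1r2, the sweet subunit, had 1362 compatible fragments per kb at a locus with Aldh4a1, Iffo2 and 3 other symbols. Tas1r3, the subunit common to both receptors, had 762 at a locus with Dvl1, and the umami subunit Tas1r1 had 128 at a locus of its own. Fragments of the neighbours count in the values for Tas1r2 and Tas1r3, and their part was not separated. How the 3 receptor genes compare is limited by this, and so are the levels of all genes at shared loci. In the list of excitability and ATP release 7 of 7 genes were detected, led by Calhm3 with 3619 per kb, the potassium channel gene Kcnq1 with 1447 at a locus with Kcnq1ot1 and 11 other symbols, and Panx1, a pannexin gene, with 1296. Calhm3 was 87.7 times Calhm1 per kb by compatible fragments and 26.8 times by total fragments, and 15.6% of Calhm1's fragments were compatible, against 51.2% for Calhm3.

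Adenylyl cyclase and protein kinase A genes were detected for 12 of 15, led by the kinase subunits Prkar1a with 4065, Prkacb with 566 and Prkaca with 530.5 per kb. The calcium store and calmodulin list was detected for 10 of 10. In this list the calmodulin gene Calm2 had 18170.1 per kb, and the calcium pump gene Atp2a2 had 1914 at a locus with Anapc7 and Gm15846. Receptor kinases, arrestins and chaperones of G proteins were detected for 9 of 9. The chaperone genes Ric8a and Ric8b had 1606 and 659 per kb, the first at a locus with Sirt3, Psmd13 and Gm15542, and the kinase gene Grk6 had 499.6 at a locus with Mir6943.

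The spread between libraries is given first as the CV, without regard to level. Beside loci of like level, 9 of the 10 cascade genes had a variance above the running median, as described below. CVs ran from 10.7% for Trpm5 and 12.1% for Gnb3 to 21.8% for Pde1c and 43.8% for Trpm4, and 8 of the 10 lay under 20%. The median CV was 16.5% for the cascade genes and 23.1% over all 13467 detected loci. Counting error was a small part of this. The CV was between 6.43 and 30.7 times the counting CV, which was 5.29% for Trpm4 and 0.563% for Rgs21. Trpm4, the least abundant, was also the most uneven, with fragments of Rpl14-ps1 counted at its locus.

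CV depends on level, so it was set against the variance that the authors fitted to loci of the same level. Above it lay 2 of the 10 cascade genes, Trpm4 with a log2 ratio of variance to fitted variance of 0.89 and Gna14 with 0.07. The background was 26.1% of detected loci, so the cascade's 2 of 10 was near it. With single-gene loci alone it was 1 of 6, Gna14, beside a background of 27.6%. Trpm5 lay farthest below the fitted variance, at −1.14, followed by Gnb3 at −0.82, Gnat3 at −0.80 and Itpr3 at −0.66. The median log2 ratio was −0.16 for the cascade genes and −0.65 over detected loci. Against the running median of loci nearest in mean, 9 of 10 lay above, all but Trpm5 at −0.15, beside a background of 50%. By compatible fragments the median log2 ratio of the cascade to the running median was 0.63, with Trpm4 at 1.70, Gna14 at 1.05 and Rgs21 at 0.99. By total fragments 8 of 10 lay above, beside a background of 49.8%, and the median log2 ratio was 0.58. The count above the curve and the sign of the median therefore depended on which curve was used. By compatible fragments the cascade's median lay above that of detected loci on both curves. It was −0.16 against −0.65 with the fitted variance and 0.63 against 0 with the running median.

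Markers of other cells are given beside this spread. All 4 keratinocyte markers lay above the fitted variance, as did 4 of 5 type III, 1 of 2 detected type I and 0 of 6 type II markers, beside the background of 26.1% of loci. Their part in the spread of the cascade genes was not tested.

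**Figure D3:**
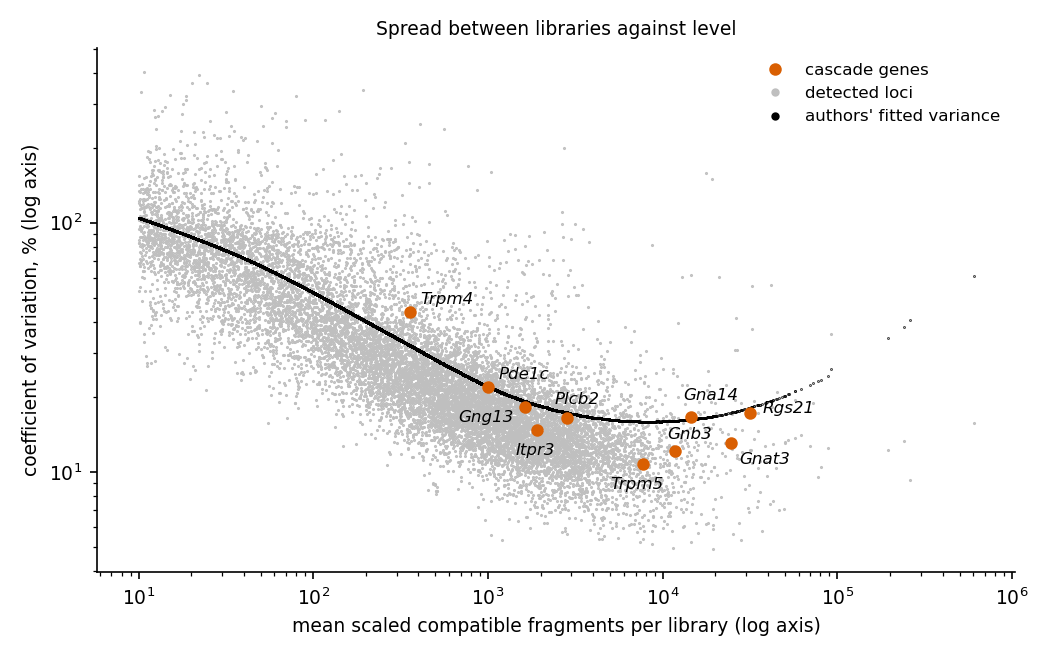
CV between libraries against the mean of compatible fragments, both on log axes, for the 10 cascade genes (orange), detected loci (grey) and the authors' fitted variance (black). Trpm4 at 43.8% lies above the fitted curve, Gna14 at 16.6% lies on it, and Trpm5 at 10.7% lies farthest below it.

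The share of compatible fragments separated Plcb2 from the rest. It was 98.9% for Gnb3, 97.8% for Itpr3, 97.0% for Trpm5, 91.9% for Gng13, 88.3% for Trpm4, 86.9% for Gna14, 83.3% for Gnat3, 82.1% for Rgs21 and 78.1% for Pde1c, against 18.9% for Plcb2. The median share was 87.6% for the cascade genes and 94.97% over detected loci. Under 50% lay 1 of 10 cascade genes, beside a background of 7.2% of detected loci. Among the 4696 loci with at least 1000 compatible fragments the background was 0.639%, and 2 of them, Plcb2 included, had a share as low as that of Plcb2. The fragments of Plcb2 that were not compatible numbered 12159, or 581 per kb of its locus, against 135 for Rgs21, 86.4 for Gnat3 and 0.649 for Itpr3. What these fragments are was not tested.

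**Figure D4:**
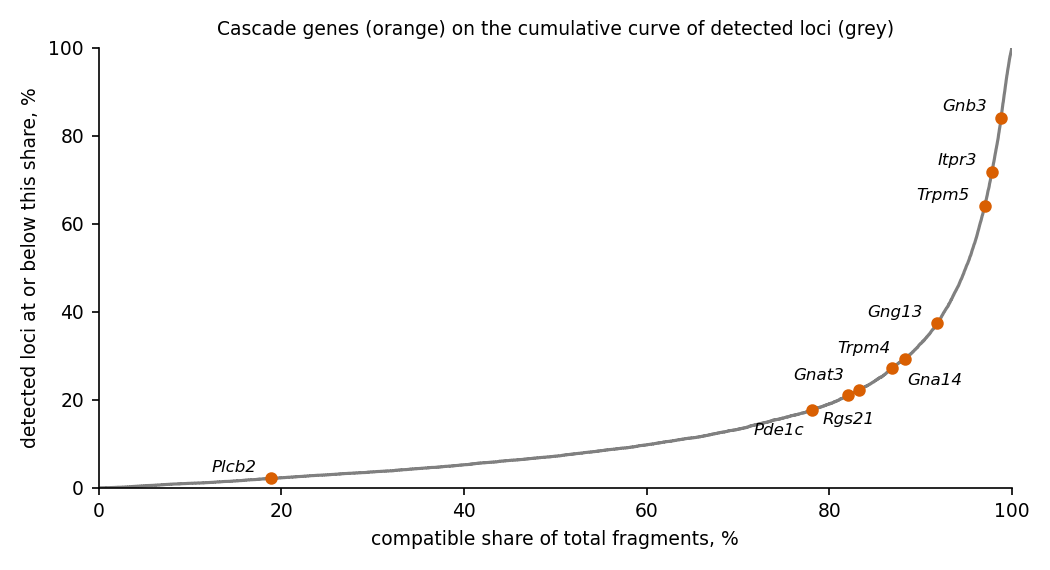
Cumulative share of detected loci (grey curve, y axis in %) against the compatible share of total fragments (x axis in %), with the 10 cascade genes in orange on the curve. Plcb2 at 18.9% lies far to the left, and the other 9 lie between 78.1% and 98.9%.

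The merged annotation held 42 transcript models for the 10 genes, of which 34 came from the reference and 8 were assembled from the study's reads. Models with an intron chain unlike any reference transcript numbered 5 of 42, beside a background of 14.2% of all models. They belonged to 3 of the 10 genes, Plcb2, Trpm5 and Pde1c, beside a background of 30.6% of genes at detected loci, so neither count stood apart. The other 3 assembled models, of Rgs21 and Trpm5, kept the reference introns and moved the ends. Gnat3, Gna14, Itpr3 and Trpm4 had 1 model each. The introns of the 8 assembled models included 0 that were absent from the reference models of their gene.

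Both assembled models of Plcb2 began 14334 bases downstream of the start of the full-length reference transcript of 32 exons. They held 12 and 13 exons and ended where that transcript ends. Their start, at 118714104, is also the start of a reference transcript annotated as a retained intron. One of the assembled models kept an intron of 466 bases (chromosome 2, 118710261 to 118710726, GRCm38) that the full-length transcript removes and that 1 reference transcript also keeps. The edges of this intron are shown because they separate the unspliced from the spliced form. They are read on the minus strand, 5′ to 3′, from GENCODE M21 transcripts, with 20 bases of exon in lower case and 20 bases of intron in capitals; the third line is the spliced junction of the same exons. The intron began with GT and ended with AG.
Plcb2 upstream edge: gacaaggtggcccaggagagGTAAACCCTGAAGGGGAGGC
Plcb2 downstream edge: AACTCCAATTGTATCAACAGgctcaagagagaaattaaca
Plcb2 spliced junction: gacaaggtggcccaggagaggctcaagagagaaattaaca

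For Rgs21, the assembled model of 5 exons started with the protein-coding reference transcript, at 144551564, and ran 1961 bases farther downstream than it. It ended at 144516648, where the non-coding reference transcript also ends. For Trpm5, 3 assembled models ended at 143071091, between 698 and 1251 bases downstream of their nearest reference transcripts, where another reference transcript of Trpm5 also ends, within the last exonic bases of Tssc4 on the other strand. One of these Trpm5 models kept an intron of 634 bases (chromosome 7, 143078467 to 143079100), which a reference transcript of Trpm5 also keeps. For Pde1c, both assembled models joined reference introns in combinations that no reference transcript has.

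**Figure D5:**
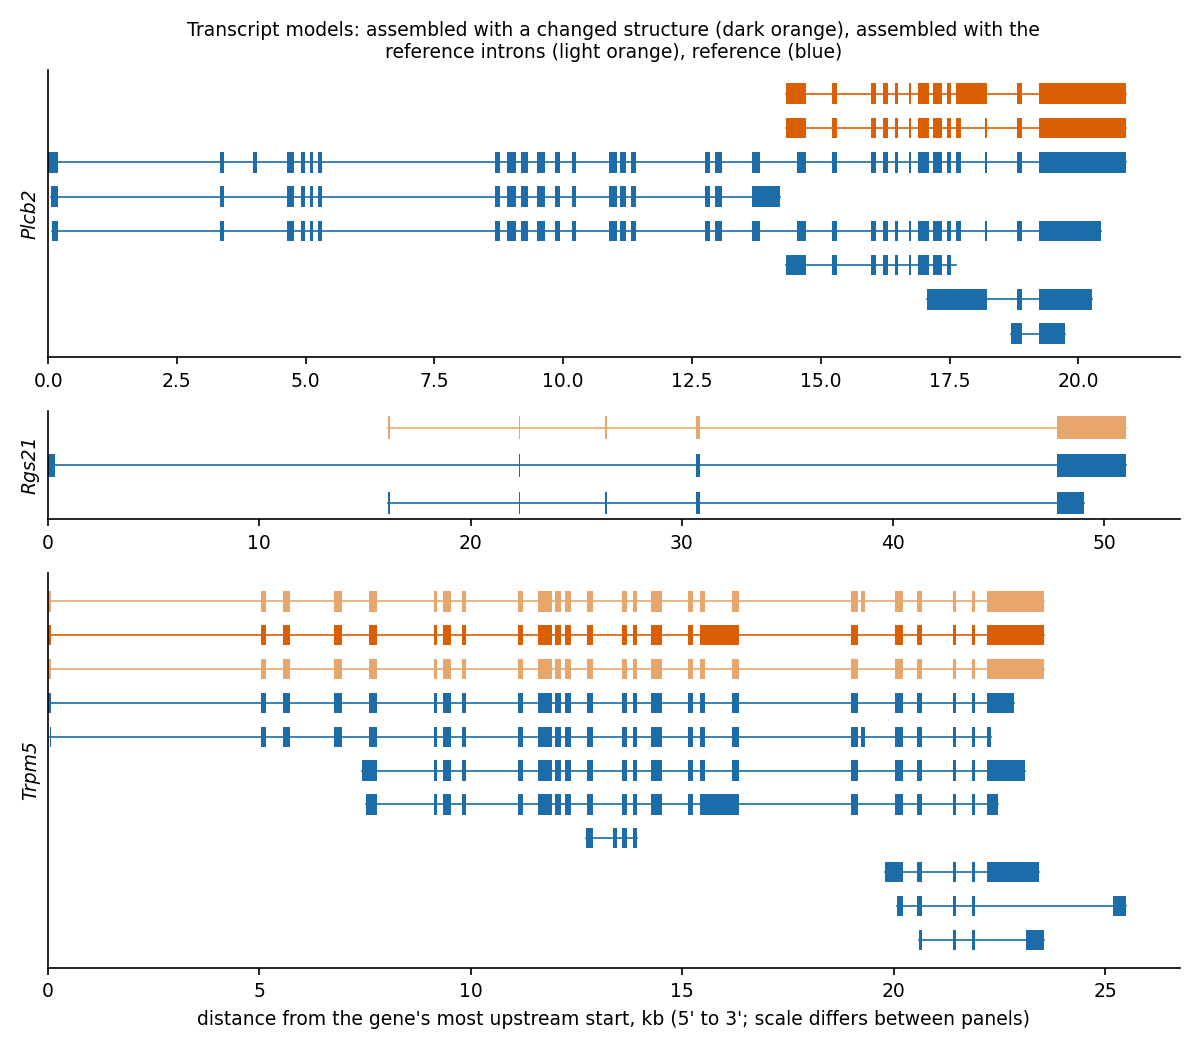
Exons (boxes) and introns (lines) of all transcript models of Plcb2, Rgs21 and Trpm5, by distance in kb from the most upstream start of each gene, with assembled models of changed structure in dark orange, assembled models with reference introns in light orange and reference models in blue. The 2 assembled Plcb2 models cover the downstream part of the gene, and those of Rgs21 and Trpm5 extend past the ends of the reference models they match.

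Promoter windows of the cascade genes were searched for the octamer ATGCAAAT, the sequence that POU-family transcription factors such as Pou2f3 are known to recognise. RefSeq promoters on GRCm38.p6, 250 bases before to 50 after a start, were listed for 8 of the 10 genes in 11 windows, and not for Gnb3 and Trpm4. Read on both strands, the octamer was found in 3 of the 11 windows, for Rgs21, Itpr3 and Pde1c, and in 1.74% of all 32851 windows of the same length. The shorter ATGCAAA, which the octamer contains, was found in 4 of the 11 windows, Gna14 being the addition, and in 4.63% of all windows. A match is a description of these letters and shows no binding. The 4 windows are printed 5′ to 3′ on the strand of the gene, with matches in capitals.
Rgs21 (chr1:144567618-144567917, minus strand): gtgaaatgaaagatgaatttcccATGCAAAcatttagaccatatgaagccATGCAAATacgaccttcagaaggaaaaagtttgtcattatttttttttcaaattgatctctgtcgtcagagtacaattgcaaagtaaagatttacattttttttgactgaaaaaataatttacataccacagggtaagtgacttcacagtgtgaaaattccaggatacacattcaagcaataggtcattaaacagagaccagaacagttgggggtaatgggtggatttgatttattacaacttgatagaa
Itpr3 (chr17:27057054-27057353, plus strand): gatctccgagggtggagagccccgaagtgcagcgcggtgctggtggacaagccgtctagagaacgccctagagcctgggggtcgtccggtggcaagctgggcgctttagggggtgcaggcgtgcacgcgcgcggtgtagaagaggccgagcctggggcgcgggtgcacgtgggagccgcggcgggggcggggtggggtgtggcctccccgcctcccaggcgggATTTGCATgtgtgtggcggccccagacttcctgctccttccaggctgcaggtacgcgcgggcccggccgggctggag
Pde1c (chr6:56369585-56369884, minus strand): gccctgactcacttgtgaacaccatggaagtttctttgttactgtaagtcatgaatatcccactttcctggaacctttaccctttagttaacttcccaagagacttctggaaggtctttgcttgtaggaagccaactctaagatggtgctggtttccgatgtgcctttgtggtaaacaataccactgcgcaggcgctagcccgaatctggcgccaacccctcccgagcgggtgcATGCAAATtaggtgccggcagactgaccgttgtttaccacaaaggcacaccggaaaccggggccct
Gna14 (chr19:16435417-16435716, plus strand): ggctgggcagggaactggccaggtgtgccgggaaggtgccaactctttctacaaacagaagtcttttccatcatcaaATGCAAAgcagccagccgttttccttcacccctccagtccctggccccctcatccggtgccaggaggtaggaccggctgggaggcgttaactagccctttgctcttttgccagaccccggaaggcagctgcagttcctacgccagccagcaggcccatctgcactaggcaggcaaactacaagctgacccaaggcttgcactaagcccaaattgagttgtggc
Counted from the start of transcription, the octamer began at −200 in Rgs21, at −16 in Pde1c and, on the opposite strand, at −27 in Itpr3. A second match in Rgs21, at −227, and the match in Gna14, at −173, were of the shorter form. The Rgs21 window lies at the start of the non-coding reference transcript, 16103 bases upstream of the start shared by the protein-coding and the assembled model. The Pde1c window is 1 of 3 listed for that gene.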

How the data were processed

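RNA from circumvallate taste buds was reverse-transcribed with oligo(dT) primers and sequenced, per the labels' protocols. Per the submitters' processing notes, build GRCm38.p4 was used with Bowtie2, TopHat, Cuffdiff, Cufflinks, FastQC and Trimmomatic, with no version or setting stated in the sources used here. The authors deposited transcripts merged by Cufflinks and a signal per locus, namely the mean and variance over libraries of size-factor-scaled fragments with a fitted variance, per the file headers those of Cuffdiff's variance model. Values are not divided by length.

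Loci were tied to genes through exons of the merged annotation that carry the gene's symbol. Per kb values used the longest reference transcript, since levels of different genes are compared only per length. Where a gene had several loci, the one with most compatible fragments was used. A locus was detected at a mean of at least 10 compatible fragments. Counting CV is that of a Poisson count at the mean. Set sizes were read within a relative tolerance of 0.0001. No statistical test was run, because the table holds no level per library and no difference between conditions. Cascade genes and lists were chosen with earlier results of these data known. Named genes were the 10, the highest paralog of each family and those above a cascade gene, and the 3 genes highest per kb in each pathway list, of which 1 is not reported here; Calhm1, Gnat1, Gnat2, Gnai1, Gnai3, Plcb1, Plcb3, Itpr2, Pde1a, Pde1b, Rgs20 and the marker genes were named besides, after their values had been seen. The code for set sizes and variance ratios was run on simulated data built with the same set sizes. This checks the code and cannot show that the sizes are right. Sequences came from RefSeq promoters on GRCm38.p6 and GENCODE M21 transcripts on GRCm38, whose lengths matched the models in the deposited annotation. Alternatives were total fragments, other detection minima, single-gene loci, a running median and other transcript lengths. Figures were drawn with matplotlib 3.10.9, and tables were computed with pandas 2.3.3 and numpy 2.4.6 under Python 3.11.15.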

Additional observations from a re-analysis of the deposited data

How the results depend on the processing

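All 10 cascade genes stayed detected at a minimum of 1 or 100 compatible fragments and by total fragments. With loci of 1 gene symbol only, 6 were detected and 5 had a compatible share of at least 50%, against 10 and 9 with shared loci, because fewer genes remain. Genes above the fitted variance numbered 2, or 1 with single-gene loci, and 9 against the running median or 8 by total fragments with a running median. The median log2 variance ratio of −0.16 turned to 0.63 against the running median and to 0.58 by total fragments with it. Over detected loci the median was −0.65 with the fitted variance and 0 with the running median of compatible fragments. The cause was not tested. Median CV, the count of families led by a cascade gene and the count of models with changed structure kept within 1.5 times their value or their spread under the alternatives run. By total fragments 4 of 10 levels moved by more than 1 SD, and per kb of exon union 4 of 10 did. A length of the protein-coding transcript, chosen after seeing the data, moved 1, Rgs21. No paired analysis was possible because the table holds no column per library. The pooled means limit what can be seen: a change between feeding states would not show.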

Other observations

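Low compatible shares also occurred among paralogs of the cascade genes, which were picked after their values were seen. Gnai1, an inhibitory alpha subunit, had 423 compatible and 13750 total fragments, a share of 3.07%. Gnal, the olfactory alpha subunit, had 1125 compatible and 5008 total fragments, or 22.5%. Rgs9 had 87.2 compatible and 1391 total fragments, or 6.27%, and Rgs18 had 1.02 compatible and 596 total fragments, or 0.171%. Pde11a had 324 compatible and 1368 total fragments, or 23.7%.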
